A study of Homo sapiens
Mus musculus with 3 samples.

Results

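The transcripts described here are 10 human mitochondrially encoded mRNAs, chosen by their gene identifiers out of 32738 human genes listed in the count tables. The mitochondrial genome of human cells carries the code for a small set of proteins, and every one of them is a subunit of the oxidative phosphorylation machinery of the inner mitochondrial membrane. The genes are transcribed as long precursors from both strands, cut at the transfer RNAs that lie between most of them, and given short poly(A) tails, so that their mRNAs are captured by poly(T) primers together with nuclear mRNAs. In single-cell RNA-seq, the share of counts from these mRNAs is commonly used as a quality measure of a cell, because mitochondrial mRNA tends to be kept when cytoplasmic RNA leaks out. The RefSeq table lists 13 protein-coding genes on this chromosome, and the other members of that set were not analysed here.

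The 10 mRNAs fall into the complexes of the respiratory chain. MT-ND1 (ENSG00000198888), MT-ND2 (ENSG00000198763), MT-ND3 (ENSG00000198840), MT-ND4 (ENSG00000198886) and MT-ND5 (ENSG00000198786) encode membrane-arm subunits of complex I, the NADH dehydrogenase. MT-CYB (ENSG00000198727) encodes cytochrome b of complex III. MT-CO1 (ENSG00000198804), MT-CO2 (ENSG00000198712) and MT-CO3 (ENSG00000198938) encode the core subunits of complex IV, cytochrome c oxidase. MT-ATP6 (ENSG00000198899) encodes the proton-channel subunit a of complex V, the ATP synthase. In the RefSeq gene order of the chromosome, MT-CO1, MT-CO2, MT-ATP6 and MT-CO3 stand at places 3, 4, 6 and 7 of the 13, so these complex IV and complex V genes are close neighbours. MT-CYB is the last of the 13.

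The counts come from 3 ICELL8 libraries, in which single cells are dispensed into the nanowells of a chip and the 3' ends of their mRNAs are sequenced. The cells of each library were 4 lymphocyte lines in equal parts, the human T-cell lines Jurkat and TALL-104 (TALL104 in the labels) and the mouse lines EL4 (T cells) and IVA12 (B cells), and the labels name no treatment. Libraries 3'DE replicate 1 and 3'DE replicate 2 used the official protocol, and 3'DE-UMI replicate 1 used an alternate one. In both, the primers carry a unique molecular identifier (UMI). In the alternate protocol an exonuclease removes the barcoding primers after reverse transcription and before the cDNA is amplified, whereas in the official one they stay in the reaction. Reads were counted for all libraries and UMIs for 3'DE-UMI replicate 1. By the study's sample table, 3'DE replicate 1 came from another cell mixture than the other 2 libraries, which share theirs. A well was called human when it had at least 1000 gene-assigned reads, at least 200 genes and under 10% of its reads from mouse genes. This gave 533, 484 and 557 human wells in 3'DE replicate 1, 3'DE replicate 2 and 3'DE-UMI replicate 1, or 1574 of the 4360 wells kept. They held 10810654, 47876090 and 15384297 human reads, with medians of 20381, 33355 and 15948 per well, and the 557 wells of the UMI library held 1110228 human UMIs. Which human wells are Jurkat and which TALL-104 was not determined, because the tables used here do not pair the identifiers of the marker genes with symbols. The well barcodes recur between chips, with 469 to 539 shared by a pair of libraries. Wells that were human in both libraries of a pair (83 to 97 wells) had mitochondrial shares correlated at a Spearman rho of -0.07 to 0.09.

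The 10 mRNAs together made up several percent of human reads in every library, and the 3'DE-UMI library had the lowest share. Their share was 5.59% in 3'DE replicate 1 (95% Clopper-Pearson interval 5.57 to 5.60), 7.21% in 3'DE replicate 2 (7.20 to 7.22) and 3.58% in 3'DE-UMI replicate 1 (3.57 to 3.59). These intervals cover counting error only, and reads of 1 molecule are not independent. The 3'DE libraries averaged 6.40% ± 1.15 (SD, n = 2), and the 3'DE-UMI library lay 1.77-fold below that mean, outside the range of the 3'DE libraries. Within the shared cell mixture, 3'DE replicate 2 stood 2.01-fold above 3'DE-UMI replicate 1. The lower sum did not hold for each mRNA. The largest falls in share were those of MT-CO2, from a 3'DE mean of 2.95% to 0.510%, and MT-ATP6, from 0.917% to 0.249%. MT-CYB and MT-CO1 had higher shares in the 3'DE-UMI library than in either 3'DE library, and MT-CO3 lay between them. The complex I mRNAs were lower by smaller amounts. By UMIs, the share in the 3'DE-UMI library was 4.43% (4.39 to 4.47), between its read share and the shares of both 3'DE libraries. These totals are described without a test, and an exact permutation of 2 libraries against 1 could not reach the threshold.

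The wells of a library mostly lay close to one another, with a thin upper tail. The middle of the wells, between the lower and the upper quartile, spanned 4.43% to 6.43% in 3'DE replicate 1, 5.55% to 7.89% in 3'DE replicate 2 and 2.85% to 4.31% in 3'DE-UMI replicate 1, with medians of 5.51%, 6.64% and 3.57%. Shares over 10% were seen in 12 wells (2.25%), 27 wells (5.58%) and 1 well (0.180%). Shares over 20% were seen in 7, 5 and 1 wells, and the highest wells reached 33.7%, 26.4% and 25.9%. Shares under 1% occurred in 2, 2 and 8 wells. The wells over 20% in 3'DE replicate 1 had a median of 970 genes, against 2623 in the wells of 1% to 10%, and the single such well of 3'DE-UMI replicate 1 had 318 genes, against a median of 809. In 3'DE replicate 2 the medians were 1938 and 2599 genes, but its 27 wells over 10% had a median of 2702 genes and 51605 human reads, above the 2599 genes and 31511 reads of the wells of 1% to 10%. In the high wells the order of MT-CO2 and MT-CO1 was that of their library. MT-CO2 reads per MT-CO1 read were 4.98 in the wells over 20% and 4.68 in those of 1% to 10% in 3'DE replicate 1, 8.27 and 6.49 in 3'DE replicate 2, and 0.619 and 0.646 in 3'DE-UMI replicate 1.

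**Figure D1:**
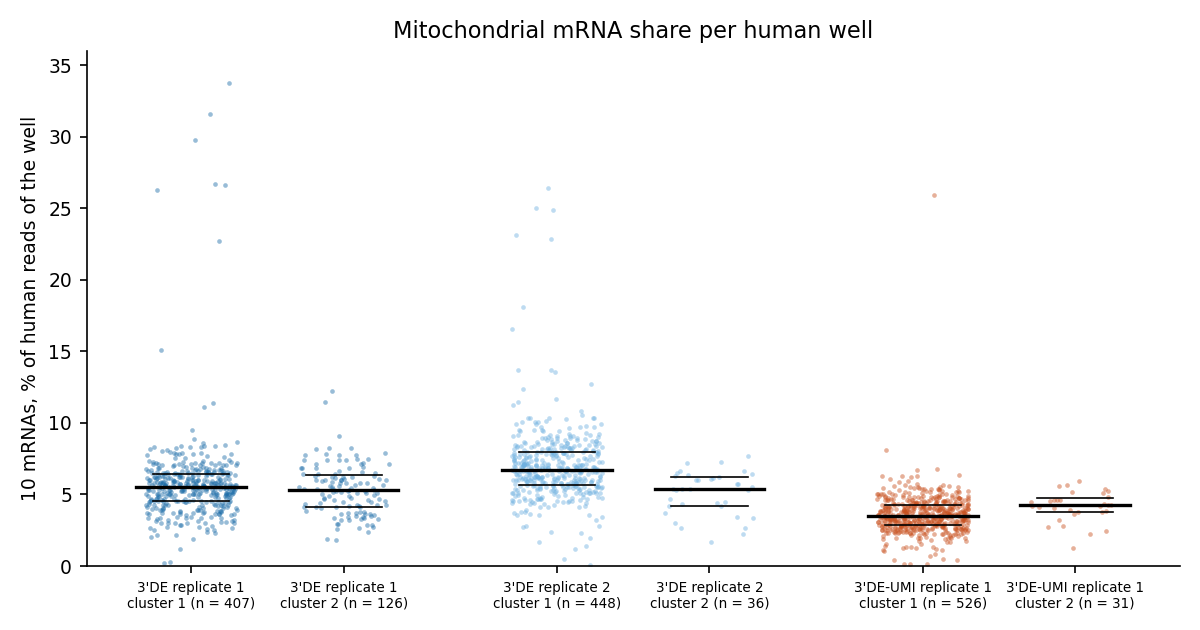
Share of the 10 mitochondrial mRNAs in the human reads of each well (y axis, percent), by library and human cluster (x axis, with the number of wells). Each dot is 1 well, the thick line is the median and the thin lines are the quartiles. Medians lie near 5% to 7% in the 3'DE libraries and near 4% in the 3'DE-UMI library, and single wells of human cluster 1 reach 33.7%.

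The make-up of the 10 differed between the libraries far more than their sum. In both 3'DE libraries MT-CO2 took the largest share of human reads of any gene in the table. It was 2.22% of human reads in 3'DE replicate 1 and 3.69% in 3'DE replicate 2, against 0.510% in 3'DE-UMI replicate 1, where it ranked 22 among the human genes. MT-ATP6 ranked 4 in both 3'DE libraries, at 0.867% and 0.967%, and 73 in the 3'DE-UMI library, at 0.249%. By UMIs of that library MT-CO2 had 0.652% and ranked 13, and MT-ATP6 had 0.388% and ranked 46. Shares of reads are ordered here within a library. Reads per UMI ran from 5.87 to 16.2 among the 10 in the 3'DE-UMI library, so shares of reads do not rank the genes by molecules.

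By reads, MT-CO1, MT-CO3 and MT-CYB had the largest shares of the 10 in the 3'DE-UMI library. MT-CO1, the catalytic subunit of cytochrome c oxidase, had 0.473%, 0.534% and 0.790% of human reads in 3'DE replicate 1, 3'DE replicate 2 and 3'DE-UMI replicate 1, and ranked 13, 11 and 4. MT-CYB had 0.385%, 0.391% and 0.683%, and its rank went from 20 in both 3'DE libraries to 8. By UMIs MT-CO1 had 1.13% and ranked 1 of all human genes, and MT-CYB had 0.714% and ranked 8. MT-CO3 was nearly level in all libraries, at 0.819%, 0.732% and 0.751% of human reads. The subunits of complex IV, which work in one enzyme, thus changed their order by reads. MT-CO2 was the highest and MT-CO1 the lowest of them in the 3'DE libraries, and the reverse held in the 3'DE-UMI library. By UMIs of that library MT-CO1 was again the highest of them, and MT-CO2 (0.652%) and MT-CO3 (0.643%) were nearly level.

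The complex I mRNAs had low shares, with MT-ND4 the highest of them. MT-ND4 had 0.435%, 0.419% and 0.291% of human reads in the same order of libraries. MT-ND5 had 0.148%, 0.230% and 0.110%, and MT-ND1 had 0.129%, 0.101% and 0.0955%. MT-ND2 had 0.0656%, 0.104% and 0.0592%, and MT-ND3, the lowest of the 10 in every library, had 0.0484%, 0.0449% and 0.0397%. For MT-ND2 and MT-ND5 the 3'DE libraries differed from each other by 1.59-fold and 1.55-fold, as much as or more than the 3'DE-UMI library differed from 3'DE replicate 1 (1.11-fold and 1.35-fold lower). Against 3'DE replicate 2, of the same mixture, the 3'DE-UMI library was 1.76-fold and 2.09-fold lower. For MT-ND1 and MT-ND3 the ratio of 3'DE replicate 2 to 3'DE replicate 1 was 0.784 and 0.927, and the 3'DE-UMI library was lower than both.

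**Figure D2:**
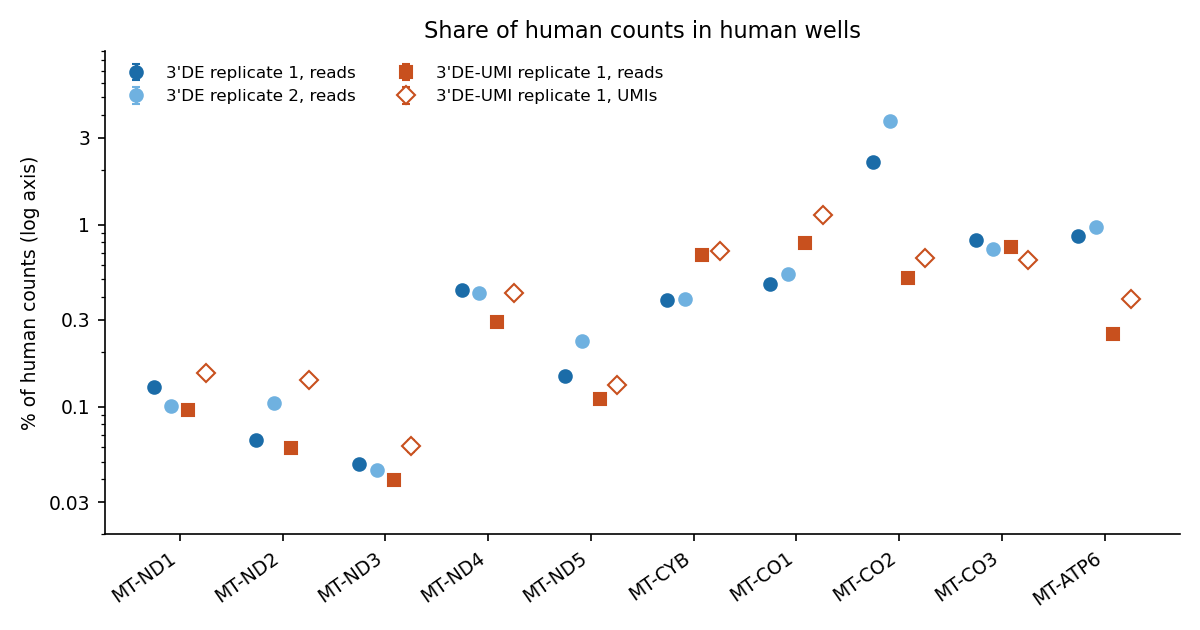
Share of human counts in human wells (y axis, percent, log axis) for each of the 10 mRNAs (x axis), in the 3 libraries by reads (filled) and in 3'DE-UMI replicate 1 also by UMIs (open). Bars are 95% Clopper-Pearson intervals, which are mostly smaller than the symbols. MT-CO2 falls from 3.69% and 2.22% in the 3'DE libraries to 0.510%, while MT-CO1 and MT-CYB lie higher in the 3'DE-UMI library.

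The question set by the study design is how the protocols compare, and 4 of the 10 mRNAs differed between them in the fit across all genes. Counts were summed over the human wells of each library and tested with edgeR's quasi-likelihood test, with p-values adjusted by the Benjamini-Hochberg method over the 13896 genes tested. Of these genes 2098 passed an adjusted p of 0.05, which is 15.1%, with 902 higher (6.49%) and 1196 lower (8.61%) by the alternate protocol. MT-CO2 and MT-ATP6 were lower and MT-CYB and MT-CO1 were higher. The fit has 2 libraries against 1 and 1 residual degree of freedom is left, with the variance of 3'DE-UMI replicate 1 assumed to equal that of the others. Nothing in the labels says that the libraries come from separate cultures beyond the 2 mixtures. The p-values refer only to these libraries, and edgeR moderates the variance of each gene with that of the other genes tested. They therefore do not measure the spread of a single gene between its libraries. Cell mixture and protocol are partly confounded, and values within the shared mixture are given beside the results.

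MT-CO2 fell by 2.39 on the log2 scale (SE 0.25, adjusted p = 4.6e-07 by edgeR). The log2 difference was -2.80 against 3'DE replicate 2, of the same mixture, and -1.92 against 3'DE replicate 1. The gap between the 3'DE libraries themselves was large for this gene, with 3'DE replicate 2 higher by 0.90 on the log2 scale of the fit. MT-ATP6 fell by 1.73 (SE 0.23, adjusted p = 1.33e-05 by edgeR), with -1.90 against 3'DE replicate 2 and -1.60 against 3'DE replicate 1. MT-CYB was higher by 0.97 (SE 0.21, adjusted p = 0.00261), with 0.86 and 1.02 against the 3'DE libraries in the same order. MT-CO1 was higher by 0.80 (SE 0.21, adjusted p = 0.00993), with 0.62 and 0.94. All 4 differences exceeded the gap between the 3'DE libraries, which was 0.33 for MT-ATP6, 0.20 for MT-CYB and 0.34 for MT-CO1.

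The other members did not pass the test. MT-CO3 had a log2 difference of 0.11 (SE 0.20), which turned to -0.05 with library totals in place of scaling factors and to -0.14 with UMIs. The complex I mRNAs had -0.11 (MT-ND1), -0.38 (MT-ND2), -0.08 (MT-ND3), -0.40 (MT-ND4) and -0.64 (MT-ND5), with adjusted p of 0.162 or more by edgeR. Over the 10 the median log2 difference was -0.25, against -0.14 over all genes tested. Library totals in place of scaling factors moved the median of all genes to -0.29, and the 4 calls stood. That scaling also moved the share of calls that were higher from 43.0% to 31.8%. When UMIs replaced reads for the 3'DE-UMI library, the same 4 passed, at -2.07 (MT-CO2), -1.12 (MT-ATP6), 1.01 (MT-CYB) and 1.28 (MT-CO1), whereas MT-ND1, MT-ND2, MT-ND3 and MT-ND4 had values above 0 (0.10 to 0.83), none of which passed. The difference of MT-CO1 missed the threshold in 3 of 10 alternative fits, with adjusted p = 0.0968 in DESeq2, 0.0546 under a mixed-species limit of 5% and 0.0556 with no filter on low counts. MT-CO2, MT-ATP6 and MT-CYB passed in all 10.

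**Figure D3:**
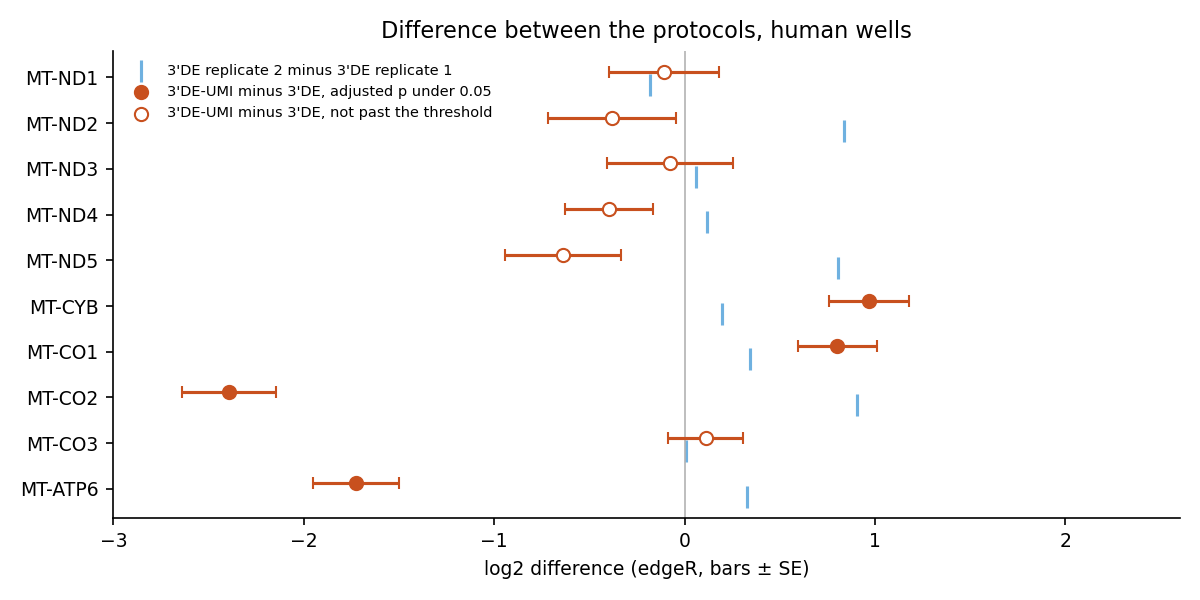
Log2 difference between the protocols in human wells, 3'DE-UMI minus 3'DE (circles, x axis, edgeR, bars ± SE, 2 libraries against 1) for each mRNA (y axis), with the gap between the 3'DE libraries as blue ticks. Filled circles passed an adjusted p of 0.05. MT-CO2 (-2.39) and MT-ATP6 (-1.73) lie far to the left, MT-CYB (0.97) and MT-CO1 (0.80) to the right, and their gaps between the 3'DE libraries are smaller.

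Single wells showed the same change of make-up. Among human wells with at least 20 reads of the 10 mRNAs, MT-CO2 had more reads than MT-CO1 in 501 of 533 wells of 3'DE replicate 1 (94.0%, 95% interval 91.6 to 95.9) and in 479 of 483 wells of 3'DE replicate 2 (99.2%, 97.9 to 99.8). In 3'DE-UMI replicate 1 this held in 103 of 555 wells (18.6%, 15.4 to 22.1), and by UMIs in 33 of 476 wells (6.93%, 4.82 to 9.60). MT-CO2 led the 10 in 88.2% and 98.3% of the wells of the 3'DE libraries and in 6.13% of those of the 3'DE-UMI library. In that library MT-CO1 led by reads in 37.5% of wells, MT-CO3 in 31.2% and MT-CYB in 23.1%. By UMIs MT-CO1 led in 71.2% of the 476 wells, MT-CYB in 15.97%, MT-CO3 in 5.25% and MT-CO2 in 4.62%. MT-ATP6 exceeded its neighbour MT-CO3 by reads in 51.6% and 74.3% of wells of the 3'DE libraries and in 9.19% of wells of the 3'DE-UMI library. Wells are not replicates of a protocol, and these shares describe the libraries.

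In the median well, MT-CO2 made up 38.7% of the reads of the 10 in 3'DE replicate 1, 50.5% in 3'DE replicate 2 and 13.1% in 3'DE-UMI replicate 1. MT-CO1 made up 8.64%, 6.93% and 22.0%, and MT-CYB 6.64%, 5.27% and 18.0%. Summed by complex, complex IV held 62.8%, 68.7% and 57.3% of the reads of the 10, since the changes of MT-CO2 and MT-CO1 ran in opposite directions. Complex III went from 6.88% and 5.43% to 19.1%, and complex V went from 15.5% and 13.4% to 6.97%. Complex I stayed at 14.8%, 12.5% and 16.6%. These shares are parts of 1 sum and do not move independently.

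**Figure D4:**
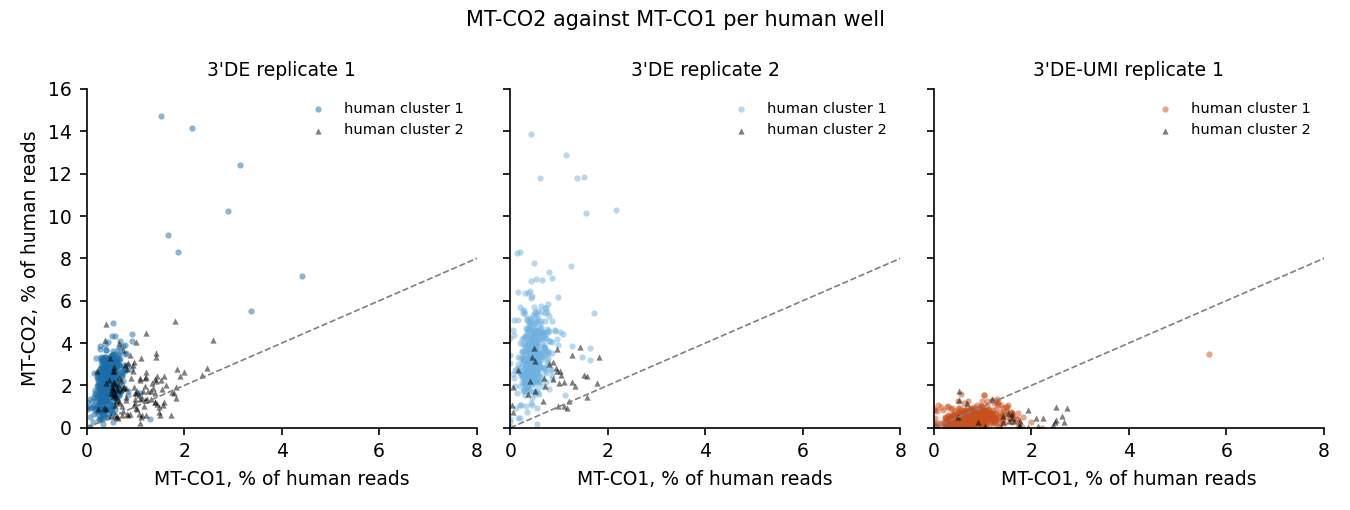
MT-CO2 (y axis) against MT-CO1 (x axis), each as percent of the human reads of the well, 1 panel per library. Coloured dots are wells of human cluster 1, black triangles wells of human cluster 2, and the dashed line marks equal shares. Nearly all wells of the 3'DE libraries lie above the line (94.0% and 99.2%), and most of those of the 3'DE-UMI library lie below it.

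Within human cluster 1, depth moved the part of MT-CO2 in the 10 little. Wells of this cluster, the larger of 2 groups of human wells described next, were split into quartiles of human reads. MT-CO2 made up 37.9%, 38.9%, 40.6% and 40.5% of the 10 from the shallowest to the deepest quartile in 3'DE replicate 1, 52.5%, 50.5%, 51.2% and 51.3% in 3'DE replicate 2, and 14.1%, 13.04%, 13.4% and 14.9% in 3'DE-UMI replicate 1. No quartile of one protocol reached the range of the other. The sum of the 10 was 7.04% of human reads in the shallowest quartile of 3'DE replicate 1, against 5.32% to 5.52% in the deeper ones. In the other libraries it ran from 6.83% to 7.28% and from 3.52% to 3.63%.

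The human wells formed 2 clusters when grouped on 1000 variable genes from which the 10 mRNAs were left out. Cluster 1 held 407, 448 and 526 wells of 3'DE replicate 1, 3'DE replicate 2 and 3'DE-UMI replicate 1, and cluster 2 held 126, 36 and 31. Cluster 2 was shallower, with medians of 4459.5, 9277 and 5648 human reads per well against 25638, 36444.5 and 17540. The clusters bear no line's name, because their marker genes could not be matched. They were drawn on other genes of the same wells, so tests between them describe how the mitochondrial mRNAs follow that grouping.

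MT-CO1 was the one mRNA with a higher share in cluster 2 in every library. It had 0.441% of human reads in cluster 1 and 0.985% in cluster 2 of 3'DE replicate 1, 0.515% and 1.18% in 3'DE replicate 2, and 0.775% and 1.87% in 3'DE-UMI replicate 1. The ratio was 2.23, 2.28 and 2.41, although the protocols gave quite different levels. By UMIs the shares were 1.10% and 2.59%. The medians over wells told the same, with 0.414%, 0.463% and 0.756% in cluster 1 and 0.982%, 0.959% and 1.72% in cluster 2. Of the reads of the 10, MT-CO1 made up 18.6%, 20.3% and 42.6% in cluster 2. In the shallowest quartile of cluster 1 it made up 8.48%, 6.68% and 21.2%. Those wells had up to 16489, 14095 and 9213 human reads, so the depths are not matched, and the part of depth was not tested.

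The remaining mRNAs had lower or level shares in cluster 2. MT-ND5 had 0.152%, 0.234% and 0.111% in cluster 1 against 0.0830%, 0.0883% and 0.0488% in cluster 2, lower in 3 of 3 libraries. MT-ND2 was likewise lower in 3 of 3 libraries, by 1.93-fold, 3.06-fold and 2.71-fold, and MT-ATP6 by 1.58-fold, 1.92-fold and 1.33-fold. MT-CO2 was lower by 1.17-fold and 1.40-fold in the 3'DE libraries and level in the 3'DE-UMI library, at 0.510% and 0.515%. MT-CYB stayed within 1.11-fold in each library. MT-ND3 rests on few counts in cluster 2, with 228, 118 and 63 reads, and its ratio ran from 1.35-fold to 5.44-fold lower.

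**Figure D5:**
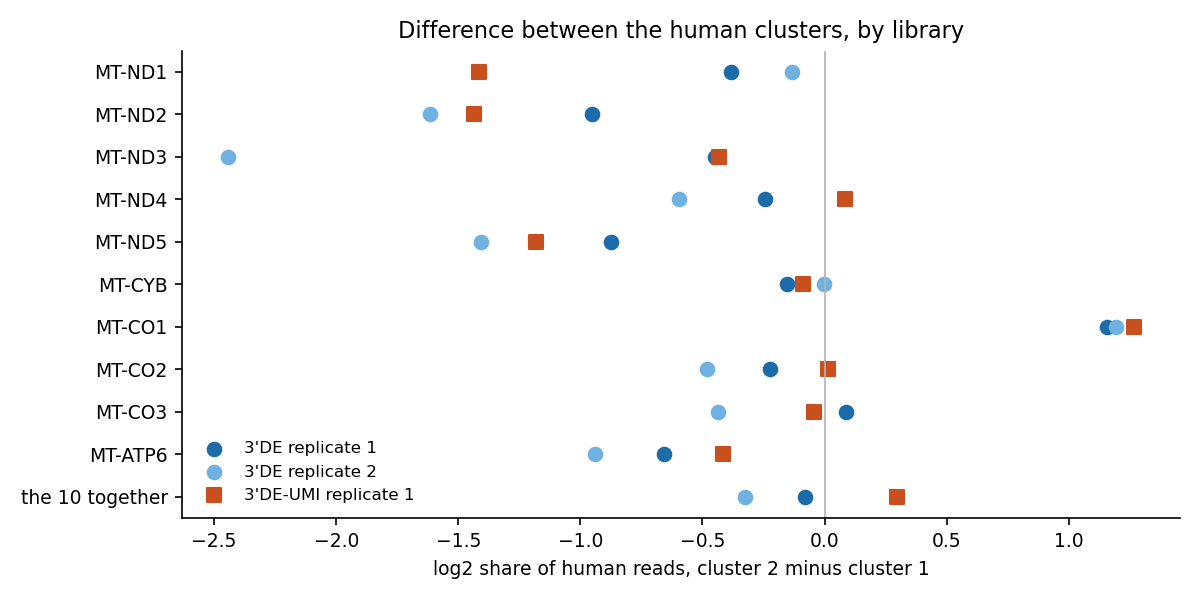
Log2 of the share of human reads in human cluster 2 minus that in cluster 1 (x axis) for each mRNA and for their sum (y axis), 1 symbol per library. MT-CO1 lies between 1.16 and 1.27 in the 3 libraries, and MT-ND2 and MT-ND5 lie below 0 in all 3.

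Tested with edgeR on sums per library and cluster, with the library as a block, 411 of 10772 genes passed, which is 3.82% (146 higher, 1.36%, and 265 lower, 2.46%). Of the mitochondrial mRNAs MT-CO1 was higher in cluster 2 by 1.02 on the log2 scale (SE 0.16, adjusted p = 1.15e-07 by edgeR). MT-ATP6 was lower, at -0.85 (SE 0.21, adjusted p = 0.00208), as were MT-CO2, at -0.41 (SE 0.11, adjusted p = 0.00949), and MT-ND5, at -1.33 (SE 0.42, adjusted p = 0.0443). The median over all genes was -1.79, and over the 10 it was -0.62. The mRNAs called lower thus lay above the median gene, with 65.9% of genes at or below MT-ATP6, 73.3% at or below MT-CO2 and 57.4% at or below MT-ND5. Other scalings moved the median of all genes to -1.56 and -1.66. None of the lower calls held in every fit. RLE factors moved MT-CO2 to -0.19 and MT-ATP6 to -0.63, and leaving out the 3'DE-UMI library moved them to -0.10 and -0.54 and MT-ND5 to -0.89. No mitochondrial mRNA passed without the block, where 113 of 9500 genes passed, or in DESeq2, where 1399 of 9856 did. None passed with UMIs (654 of 7948 genes) or without 3'DE replicate 1 (59 of 9937 genes). For MT-CO1 those fits gave differences of 1.04, 1.25, 1.10 and 1.05 with adjusted p of 0.14, 0.408, 0.152 and 0.0558, so that its size was kept and its call was not. Without 3'DE replicate 2 or without the 3'DE-UMI library MT-CO1 passed, at 0.84 and 1.43. It also passed with wells thinned to 1000 human reads, at 0.72 (adjusted p = 0.00691 by edgeR), where 527 of 4445 genes passed. With at least 5000 reads per well it passed at 0.93 (adjusted p = 7.2e-05 by edgeR), where 272 of 10653 genes passed. Without 3'DE replicate 2 MT-ATP6 passed too and MT-CO2 and MT-ND5 did not, and without the 3'DE-UMI library none of these 3 passed.

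Whether the cluster difference depended on the protocol was tested with an interaction term. Of 12534 genes 41 passed (0.327%), with 0.0399% higher and 0.287% lower, and of the mitochondrial mRNAs 0 passed by edgeR. At an unadjusted p under 0.05 by edgeR were 657 of the 12534 genes and 1 of the 10, MT-ND1. Its log2 interaction was -1.68 (SE 0.84), with an adjusted p of 0.922 by edgeR. DESeq2 called 0 of the 10, and had 0 of them and 798 of 19874 genes at an unadjusted p under 0.05. With UMIs for the 3'DE-UMI library edgeR called 0 of the 10. All 10 had values below 0 in that fit, as had the median of all genes (-5.09). At an unadjusted p under 0.05 were 4 of the 10, against 116 of 9437 genes. They were MT-ND1 (-1.72), MT-CYB (-1.09), MT-CO1 (-0.92) and MT-CO2 (-0.68). In the main fit the SE of the interaction was 0.36 for MT-CO1 and 0.27 to 1.22 for the others. A p that misses the threshold therefore does not show that the cluster differences were equal in both protocols.

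Detection mostly followed the shares of reads. With each well thinned to 5000 human reads (440, 444 and 498 wells, with 93, 40 and 59 shallower wells left out), MT-CO1, MT-CO2, MT-CO3, MT-CYB and MT-ND4 had a read in 97.8% or more of the wells of every library. MT-ATP6 was found in 99.5%, 100% and 94.2% of wells. MT-ND3 was found in 75.5%, 70.5% and 52.6%, MT-ND2 in 89.3%, 93.7% and 72.9%, and MT-ND1 in 95%, 89.0% and 79.7%. MT-ND5 was found in 96.1%, 96.6% and 78.1%. In 3'DE-UMI replicate 1 this was below MT-ND1, although MT-ND5 had the larger share of reads (0.110% and 0.0955%). Without thinning MT-ND3 was found in 79.7%, 85.5% and 57.6% of human wells. Stray human reads set a background for such shares. In mouse wells, with far fewer human reads, MT-CO2 had a read in 55.0%, 99.6% and 20.4% of wells and MT-ND3 in 5.97%, 38.4% and 2.29%, so the near-complete detection of MT-CO2 in 3'DE replicate 2 is at the background and says nothing of the wells. In the mouse wells of that library MT-ATP6 was found in 85.8%, MT-ND4 in 81.0%, MT-CO3 in 76.5% and MT-CYB in 65.6%, against 5.53% to 26.2% for all members but MT-CO2 in 3'DE replicate 1 and 2.29% to 22.1% for all 10 in the 3'DE-UMI library. In cluster 2 at the same depth MT-ND3 had a read in 40%, 23.1% and 25% of 50, 26 and 16 wells, against 80.0%, 73.4% and 53.5% in cluster 1, while MT-CO1 was found in 100% of these wells of cluster 2.

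In the 3'DE-UMI library the mitochondrial mRNAs had fewer reads per UMI than most genes. Over human wells there were 550582 reads and 49160 UMIs of the 10, or 11.2 reads per UMI, against 13.9 for all human genes. The values within the 10 ran from 5.87 reads per UMI for MT-ND2 to 16.2 for MT-CO3. MT-CO1 had 9.73, MT-CO2 10.9, MT-ATP6 8.91 and MT-CYB 13.2. Among human genes with 100 UMIs or more, 5.88% had as few reads per UMI as MT-ND2 or fewer, and 47.8% as few as MT-CO3 or fewer. MT-CO1 accordingly stood further above MT-CO3 by UMIs (1.13% and 0.643%) than by reads (0.790% and 0.751%).

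The members moved together across wells in a weak way. In wells of human cluster 1 thinned to 5000 human reads (390, 418 and 482 wells), the Spearman rho of the 45 pairs had a median of 0.25 in 3'DE replicate 1, 0.17 in 3'DE replicate 2 and 0.09 in 3'DE-UMI replicate 1. The closest pairs were MT-CO2 with MT-ATP6 (0.52), MT-CYB with MT-CO2 (0.43) and MT-CYB with MT-CO3 (0.26). The points share a library and a fixed depth, and rho in sparse counts is pulled towards 0. The share of the 10 had a mean rho over the 3 libraries of -0.09 to 0.23 with 237 other human genes, those detected in at least 50% of these wells of each library. Their identifiers could not be paired with symbols, so other mitochondrial mRNAs may be among them.

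Human reads also occurred at a low level in wells called mouse. There too MT-CO2 far exceeded MT-CO1 in the 3'DE libraries and lay close to it in the 3'DE-UMI library. In 922, 773 and 700 mouse wells, with medians of 75.5, 522 and 96.5 human reads per well, the 10 made up 4.90% (4.77 to 5.04), 5.35% (5.30 to 5.40) and 1.75% (1.68 to 1.82) of human reads. This was below the share in human wells of the same library in every case. MT-CO2 was 2.26%, 3.02% and 0.297% of those reads, and MT-CO1 was 0.328%, 0.266% and 0.317%. Reads of MT-CO2 per read of MT-CO1 were 6.87, 11.3 and 0.936 there, against 4.69, 6.90 and 0.646 in human wells.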

How the data were processed

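The values are the deposited counts per gene and well barcode of 3 ICELL8 libraries. Per the study's methods, the authors downsampled the reads of each library, counted reads with mappa v0.9 and counted UMIs with the Drop-seq tools v2.3.0. Both used STAR (2.7.0b and 2.4.2a in the submitters' processing notes) and the joint hg19 and mm10 reference of Cell Ranger 1.2.0. The deposited counts are not normalized. Counts of 3' reads depend on capture at the poly(A) tail and, without UMIs, on amplification.

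Groups were taken from the labels: 3'DE (replicates 1 and 2) and 3'DE-UMI (replicate 1). The members and gene lists were chosen with earlier results of these data known. Only human genes were counted. The counts covered 1704, 1518 and 1560 barcodes in 3'DE replicate 1, 3'DE replicate 2 and 3'DE-UMI replicate 1. These are more than the 1684, 1498 and 1465 wells processed, and what the surplus barcodes are was not determined. They had 35581264, 109702878 and 44883618 gene-assigned reads in all, and the UMI table held 3833017 UMIs. No column of per-sample values in the count files was left without a library. Wells with reads of both species were dropped by the limit of 10%, doublets of 2 human cells cannot be seen this way, and no doublet caller was run. Human wells were clustered without the 10 mRNAs in scanpy 1.11.5 (1000 variable genes, scaled per library, 20 principal components, 15 neighbours, Leiden resolution 0.1). Sums per library, or per library and cluster, were tested in edgeR 4.0.16 (R 4.3.3, filterByExpr, TMM factors, glmQLFit and glmQLFTest, Benjamini-Hochberg over all human genes tested, threshold 0.05, two-sided). The SE printed with an edgeR difference is its absolute value divided by the square root of the F statistic. DESeq2 1.42.0 was an alternative. Shares of reads or wells have 95% Clopper-Pearson intervals.

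All 10 members are named. The rule also named the genes most and least like the members' sum, which are given as a range because their identifiers have no symbols here, and the remaining mitochondrial mRNAs, nuclear subunits of the same complexes, mitochondrial RNA factors, cell line markers and mouse counterparts. The table of RefSeq genes used here (GRCh38.p14, another build than the files) has no Ensembl identifiers, so 0 of the identifiers matched and none of these lists was analysed here, nor left out of the clustering, for which all mitochondrial mRNAs and the nuclear lists had been meant to be removed. That table served for gene order alone, and no coordinates or sequences are printed.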

Additional observations from a re-analysis of the deposited data

Results flagged for a closer look

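The sum of the 10 mRNAs differed between the human clusters in opposite directions under the protocols. The log2 share in cluster 2 minus cluster 1 was -0.080 in 3'DE replicate 1 and -0.33 in 3'DE replicate 2 but 0.30 in 3'DE-UMI replicate 1. This difference between the protocols was not tested for the sum. For the single mRNAs the interaction test passed for 0 of the 10 by edgeR and 0 by DESeq2. At an unadjusted p under 0.05 edgeR had 1 of the 10 (657 of 12534 genes) and DESeq2 had 0 (798 of 19874 genes). With UMIs edgeR had 4 of the 10 (116 of 9437 genes). Cluster 2 holds 31 wells in 3'DE-UMI replicate 1 and is shallower than cluster 1 in every library. The part of depth in this result was not tested.

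Mitochondrial counts were also present in barcodes that no comparison used. Wells that failed the filter with over 90% human reads gave 6.69% of human reads from the 10 mRNAs in 3'DE replicate 1 (95% interval 6.16 to 7.25, 38 wells), 2.179% in 3'DE replicate 2 (1.00 to 4.10, 1 well) and 4.54% in 3'DE-UMI replicate 1 (4.40 to 4.69, 56 wells). The UMI table holds 1543 barcodes that the read table lacks, and in these the 10 made up 3.70% of 25843 human UMIs (3.47 to 3.94). MT-CO2 exceeded MT-CO1 in the dropped wells of 3'DE replicate 1 (146 and 80 reads) and not in those of 3'DE-UMI replicate 1 (401 and 1282 reads) or in the extra barcodes (154 and 237 UMIs).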

How the results depend on the processing

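For the protocols, the number of the 10 called stayed at 3 or 4 under all 10 alternative fits. The number of all genes called, 2098 of 13896 tested, went to 1105 of 12718 with UMIs. MT-CO2, MT-ATP6 and MT-CYB passed in all 10. Among uncalled values, the direction turned with UMIs for MT-ND1 (0.55), MT-ND2 (0.83), MT-ND3 (0.51), MT-ND4 (0.10) and MT-CO3 (-0.14), with library totals for MT-CO3 (-0.047), an alternative chosen after seeing the data, and for MT-ND2 between leaving out 3'DE replicate 1 (-0.76) and leaving out 3'DE replicate 2 (0.047). No paired analysis was possible, because across the protocols only 3'DE replicate 2 and 3'DE-UMI replicate 1 share a cell mixture.

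The cluster calls rest on the fit. Of the 10, 4 passed in the main fit, 0 in DESeq2, 1 with RLE factors, 0 with UMIs and 0 with no replicate block, and 0 to 2 without 1 library each. All genes called were 411 of 10772 tested, against 1399 of 9856 in DESeq2, 339 of 10772 with RLE factors and 654 of 7948 with UMIs. They were 272 of 10653 with at least 5000 reads per well and 113 of 9500 with no replicate block. Called genes were 59 of 9937 without 3'DE replicate 1, 252 of 9763 without 3'DE replicate 2 and 436 of 10178 without the 3'DE-UMI library. Without the 3'DE-UMI library MT-CYB (0.18) and MT-CO3 (0.080) turned, and without 1 library each they ran from -0.50 to 0.18 and from -0.42 to 0.080. In the interaction, all genes called fell from 41 to 1 in DESeq2 and 1 with UMIs. MT-ND3 turned with UMIs (-0.45), and library totals turned MT-ND4 (0.50), MT-CO1 (0.093), MT-CO2 (0.36), MT-CO3 (0.13) and MT-ATP6 (0.38), none called. The cause of these changes was not tested.

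The share of the 10 in 3'DE-UMI replicate 1, 3.58%, was 3.63% as the mean of wells, 4.43% by UMIs, 3.568% in cluster 1, 3.57% under a mixed-species limit of 5% and 3.67% with wells thinned to 1000 human reads. The value under the 5% limit lies at the lower edge of the counting interval and the others just or well outside it. The 3'DE shares moved by less than the SD of their libraries in every alternative. Assignment of wells by marker lists was not run, since the markers could not be matched. Only 3 libraries limit every comparison.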
